A study of Mus musculus with 12 samples.

Results

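Mitotic and spindle genes were followed from the mammary gland to the tumor of the same mouse. The set was a named list of 46 genes that act in mitosis, at the kinetochore or on the spindle, chosen by function. All 46 were present among the 21743 genes of the count table and all passed the filter on low counts. By role the list held 5 spindle checkpoint genes (Bub1, Bub1b, Bub3, Mad2l1, Ttk), 7 kinetochore and centromere genes (Cenpa, Cenpe, Cenpf, Knl1, Nuf2, Ndc80, Spc25), 4 chromosomal passenger complex genes (Aurkb, Incenp, Birc5, Cdca8) and 8 entry kinases, cyclins and their partners (Ccna2, Ccnb1, Ccnb2, Cdk1, Cks2, Cdc25c, Plk1, Aurka). It also held 3 genes of the anaphase promoting complex and its targets (Cdc20, Ube2c, Pttg1), 8 spindle genes (Aspm, Tpx2, Kif11, Kif20b, Kif2c, Kif4, Nusap1, Hmmr), 5 genes of the midzone and cytokinesis (Prc1, Kif20a, Kif23, Ect2, Anln) and 6 genes of chromosome structure (Mki67, Top2a, Smc2, Smc4, Ncapg, Ncapd2).

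The study profiled single cells of mammary tumors and of mammary glands by Drop-seq, in which each droplet's barcode labels a cell and a unique molecular identifier (UMI) labels each captured transcript end. Cells came from 2 mice that carried MMTV-Cre and Brca1flox/flox on a mixed C57BL/6 and 129/Sv background. MG1 and MT1 were the gland and the tumor of mouse 1, and MG2 and MT2 those of mouse 2, with 2, 5, 2 and 3 libraries. The glands were the fourth mammary glands of the tumor-bearing mice and carried the same alleles, so no group was wild type for Brca1. The MMTV promoter drives Cre mainly in mammary epithelium, and cells were enriched for epithelium by removing hematopoietic and endothelial cells. With 1 mouse behind each gland and tumor pair, the libraries of a group were repeats from 1 tissue, and p-values below cover the spread between those libraries and not between animals.

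Mitosis begins when cyclin-dependent kinase 1 pairs with A- and B-type cyclins. Kinetochores then bind spindle microtubules, and the spindle checkpoint holds back the anaphase promoting complex until every kinetochore is attached. When the checkpoint is satisfied, Cdc20 activates that complex, securin and cyclin B are destroyed, sister chromatids part and the midzone guides cytokinesis. Many of these genes are switched on together late in the cell cycle by complexes that bind a cell cycle homology region (CHR), by FOXM1 and B-MYB, and by NF-Y at CCAAT boxes. In a resting mammary gland few cells divide, and expression of this programme is a usual measure of proliferation in tumors.

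To see whether the members share promoter sequence that the list did not use, RefSeq windows of 250 bases before to 50 after each gene's start were searched on both strands for the CHR core TTTGAA and the NF-Y box CCAAT, whose matches could share 1 base at most. The tables held 42 windows (GRCm38.p6) for 39 of the 46 members. TTTGAA was in 33 of 42 member windows (78.6%), against 17.9% of all 32851 windows. CCAAT was in 32 (76.2%), against 37.4%, and both were in 28 (66.7%), against 6.95%. In 29 of the 33 windows with TTTGAA, a match lay no more than 50 bases before the start or after it. A match describes these letters only and was not tested as a binding site. Promoters of 6 members whose values are described below are shown 5′ to 3′ in the gene's direction, with matches to either motif on either strand in capitals (TTCAAA and ATTGG are the same motifs read on the other strand). They were chosen because these genes rose more or less than the rest or differed most between the tumors. Ncapg (chr5:45669675-45669974, plus strand), Ncapd2 (chr6:125191537-125191836, minus strand), Knl1 (chr2:119046869-119047168, plus strand), Bub1 (chr2:127831810-127832109, minus strand), Cks2 (chr13:51644982-51645281, plus strand) and Mad2l1 (chr6:66534971-66535270, plus strand) read as follows.
Ncapg: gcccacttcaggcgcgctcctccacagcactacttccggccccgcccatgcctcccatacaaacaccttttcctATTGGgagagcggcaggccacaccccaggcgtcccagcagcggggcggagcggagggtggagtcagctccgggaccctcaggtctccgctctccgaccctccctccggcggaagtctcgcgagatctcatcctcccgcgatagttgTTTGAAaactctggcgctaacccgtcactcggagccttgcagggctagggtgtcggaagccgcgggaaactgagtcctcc
Ncapd2: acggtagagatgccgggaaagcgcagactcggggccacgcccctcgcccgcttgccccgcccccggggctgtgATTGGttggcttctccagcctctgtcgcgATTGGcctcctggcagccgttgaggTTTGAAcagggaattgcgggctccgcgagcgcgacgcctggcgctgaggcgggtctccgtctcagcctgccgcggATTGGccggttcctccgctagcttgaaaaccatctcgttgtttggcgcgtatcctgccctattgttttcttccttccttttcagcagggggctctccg
Knl1: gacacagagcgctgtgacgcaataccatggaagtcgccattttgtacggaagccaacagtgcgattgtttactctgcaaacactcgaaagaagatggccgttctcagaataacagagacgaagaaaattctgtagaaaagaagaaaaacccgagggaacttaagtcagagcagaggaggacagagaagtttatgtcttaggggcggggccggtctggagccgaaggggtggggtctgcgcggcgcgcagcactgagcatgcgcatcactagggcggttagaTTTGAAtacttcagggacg
Bub1: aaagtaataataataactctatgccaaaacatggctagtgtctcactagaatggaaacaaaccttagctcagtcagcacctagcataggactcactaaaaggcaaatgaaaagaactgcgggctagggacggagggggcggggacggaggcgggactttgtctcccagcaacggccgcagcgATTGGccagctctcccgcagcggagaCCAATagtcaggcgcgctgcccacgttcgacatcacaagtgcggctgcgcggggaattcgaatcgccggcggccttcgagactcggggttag
Cks2: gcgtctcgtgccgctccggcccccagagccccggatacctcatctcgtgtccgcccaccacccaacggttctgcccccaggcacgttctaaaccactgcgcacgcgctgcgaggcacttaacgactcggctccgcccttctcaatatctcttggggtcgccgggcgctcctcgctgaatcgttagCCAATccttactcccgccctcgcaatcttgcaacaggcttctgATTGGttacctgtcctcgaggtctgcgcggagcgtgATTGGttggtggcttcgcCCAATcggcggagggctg
Mad2l1: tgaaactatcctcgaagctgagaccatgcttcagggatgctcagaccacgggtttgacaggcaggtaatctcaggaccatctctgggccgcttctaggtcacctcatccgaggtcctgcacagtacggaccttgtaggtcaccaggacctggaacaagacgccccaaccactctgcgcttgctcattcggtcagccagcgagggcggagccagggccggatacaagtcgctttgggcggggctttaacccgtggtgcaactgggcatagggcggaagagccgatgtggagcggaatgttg

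Ncapg and Ncapd2 held both motifs, with TTTGAA beginning 30 bases before the start in Ncapg and 123 bases before it in Ncapd2. Knl1 held TTTGAA alone, 32 bases after its start. Bub1 and Cks2 held CCAAT alone, and the Mad2l1 window held neither. That Mad2l1 window ends at base 66535270, before the gene's start at 66535390 in GENCODE M21, and the bases around that start were not searched.

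The table held 21157 cells, of which 818 were from MG1, 2335 from MG2, 7690 from MT1 and 10314 from MT2. Library totals ran from 693333 UMIs (MG1 replicate 2, 105 cells) to 14841414 UMIs (MT2 replicate 1). Levels below are UMIs scaled to a TMM-adjusted library total of 1000000 (CPM), summed over the 20019 cells outside the immune-like, endothelial-like and fibroblast-like clusters. The clusters were rebuilt without the members and other cell cycle genes, and MT2's 9751 tumor cells fell in clusters that showed none of the epithelial markers looked for and stayed unnamed. A cluster with 4039 of these cells still had Bub1, Top2a, Ccna2, Cenpe, Mki67, Cenpf and Knl1 among its leading genes. Leaving out the listed genes thus did not free the clusters of the cell cycle, and that cluster is part of the unnamed cells of MT2 below. Brca1 was at 0 UMIs in MG1, at 1.82 and 2.48 CPM in the libraries of MG2, at 7.69 to 16.2 CPM in MT1 and at 9.42 to 12.4 CPM in MT2, but a count of transcript ends does not check the loss of the floxed exons. Exons of 13 members overlap those of another gene, among them Ncapg (Lcorl), Ccna2 (Exosc9), Ube2c (Tnnc2), Cdc20 (Elovl1) and Kif20a (Cdc23) on the other strand, and their counts could include that gene's reads.

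The members' summed level was higher in each tumor than in the gland of the same mouse. It was 413 and 490 CPM in the libraries of MG1 and 365 and 610 CPM in those of MG2. In MT1 it was 3402, 1792, 2604, 3100 and 3216 CPM, and in MT2 it was 5562, 6405 and 4586 CPM. The groups of glands and tumors did not overlap, and the highest MT1 library lay below the lowest MT2 library. Mean levels (± SD over libraries) were 452 ± 54.4 CPM for MG1 and 488 ± 173 CPM for MG2 with 2 libraries each, 2823 ± 647 CPM for the 5 of MT1 and 5518 ± 911 CPM for the 3 of MT2. The ratio of means was 6.25 for MT1 over MG1, 11.3 for MT2 over MG2 and 1.95 for MT2 over MT1, and no p-value is given for a sum over the list. Scaling by the plain library total instead of TMM gave 9.24 for MT2 over MG2.

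A sum over cells cannot tell more cells with these transcripts from more transcripts in each cell, so cells were also counted one by one. Each cell was thinned to 1000 UMIs and counted if 2 or more came from the members. The share was 5.70% and 11.3% of cells in the libraries of MG1, 4.13% and 5.65% in those of MG2, and 43.9%, 29.7%, 31.4%, 37.7% and 41.2% in those of MT1. In MT2 it was 50.7%, 66.1% and 52.7%. Each tumor library lay above both gland libraries, and each MT2 library above every MT1 library. Because the smallest library had 71 such cells, the exact 95% interval (Clopper-Pearson) of MG1 replicate 2 ran from 4.99% to 21%, while that of MT2 replicate 2 ran from 64.7% to 67.4%; these intervals cover counting error only. Without thinning the mean shares were 39.2%, 23.2%, 58.5% and 84.9% in MG1, MG2, MT1 and MT2. At 8 or more member UMIs of 1000, the mean shares of the glands were 0.872% (MG1) and 1.00% (MG2), and those of the tumors 11.6% (MT1) and 22.6% (MT2).

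**Figure D1:**
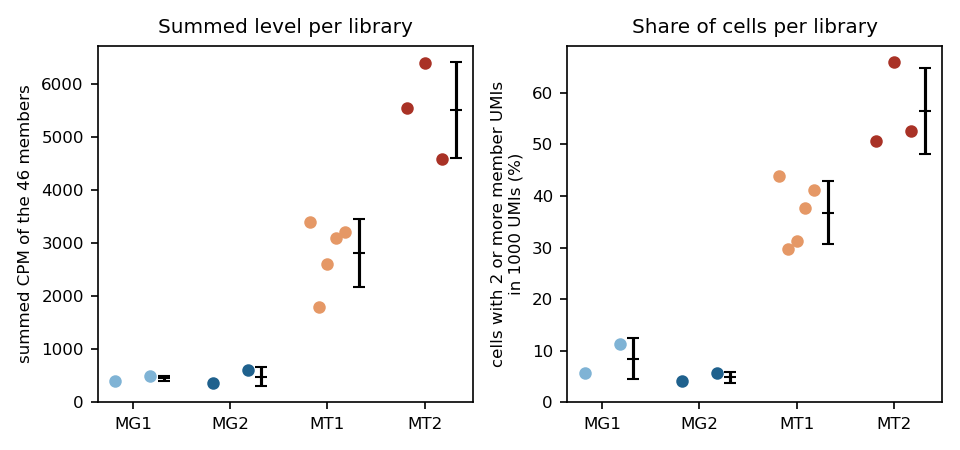
Summed level of the 46 members per library in CPM, and the percent of cells with 2 or more member UMIs among 1000. Points are libraries and the bars beside them give the group mean ± SD, and every tumor library lies above every gland library in both panels.

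Within the tumors the share with 2 or more member UMIs differed between cell classes. It was 33.9% in the pair of clusters that held most cells of MT1, 48.1% in another unnamed class of MT1 and 58.7% in the unnamed cells of MT2. In that pair 3 and 7 of the general epithelial markers were raised, which were not used for naming, and 5 and 3 of the luminal secretory markers. A cluster was named only if 3 or more markers of a specific cell type were raised, with 2 or more among its 10 leading genes. No luminal secretory marker was among the leading genes of either cluster, so both stayed unnamed. Classes of normal epithelium in the glands ranged from 3.81% to 9.43%. In MT1, 12 of 69 cells of the luminal hormone-sensing-like class reached the limit (17.4%, exact interval 9.32% to 28.4%). By library this class stood at 3.44% to 14.3% in the glands, the highest from 28 cells of MG1 replicate 2. It stood at 14.3% and 15.0% in the MT1 libraries with 20 or more of these cells. In the luminal secretory-like class of MT1, 2 of 26 cells reached the limit (7.69%, exact interval 0.946% to 25.1%). Stromal and immune classes of the tumors carried member UMIs too. The share was 27.4% in endothelial-like and 22.2% in fibroblast-like cells of MT1, and 31.1% and 32.2% in those of MT2. Immune-like cells of MT2 reached 54.6%, with 39.5% against 50.8% of the unnamed tumor cells in replicate 1, 66.2% against 66.1% in replicate 2 and 52.2% against 52.8% in replicate 3, from 43 to 71 immune-like cells a library. The part of free RNA, or of dividing immune cells, in these shares was not tested. The level of 8 or more UMIs was passed by 16.4% of immune-like and 9.97% of fibroblast-like cells of MT2, against 24.1% of its unnamed tumor cells.

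Some gland cells fell in clusters made up of tumor cells. There were 13 of them in MG1, with 4.43% of that gland's member UMIs. MG2 had 47, of which 44 lay in the unnamed class of MT1, and they held 1316 of its 4315 member UMIs (30.5%). These 44 cells, 18 from replicate 1 and 26 from replicate 2, thus fell with the tumor of the other mouse. Of the barcodes of the 47, 0 were also found in another library, and whether libraries of MG2 and MT1 were prepared or sequenced together is not given in the sources used here. Where the cells came from was not tested, which bears on the MG2 levels and on every fold change against MG2. Without these cells the pooled member level of MG2 was 388 CPM, against 541 CPM with them. Without them 14 of 46 members moved by over 1.5-fold in MT2 against MG2 and none in MT1 against MG1, where 45 members were then called, and the values for the members most affected are given below.

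To ask which members were higher in the tumor of each mouse, all 13650 genes that passed the filter were fitted with edgeR's quasi-likelihood test and p-values were adjusted over all of them (Benjamini-Hochberg, threshold 0.05). In mouse 1, 44 of 46 members rose in MT1 against MG1, where 32.5% of all genes were called higher. In mouse 2, all 46 rose in MT2 against MG2, where 36.4% of all genes were called higher. None fell in either mouse, where 27.1% and 30.6% of all genes were called lower. The median member log2 fold change was 3.24 in mouse 1 (3.17 with members at 0 UMIs set to the bounds given below) and 3.73 in mouse 2 (4.25 without the gland cells in tumor clusters), beside medians of 0.12 and 0.08 over all genes tested. Every MT1 library lay above every MG1 library for 44 of 46 members, as it did for 35.5% of all genes, and Mad2l1 and Ndc80 were the exceptions. Every MT2 library lay above every MG2 library for all 46 members, as it did for 43.2% of all genes. Leaving out each library in turn gave 38 to 45 members called in mouse 1 and 46 throughout in mouse 2. Calls of Aspm, Aurka, Aurkb, Knl1, Ndc80 and Pttg1 were lost without MG1 replicate 1, which left 71 gland cells. Fold changes of called members also moved by over 1.5-fold without a gland library, for 22 members without MG1 replicate 1, 8 without MG1 replicate 2, 6 without MG2 replicate 1 and 22 without MG2 replicate 2, and for none without a library of a tumor or of the other mouse. For the fold changes printed, such values are given below by role, as ratios of pooled UMIs with exact 95% counting intervals where 1 to 3 gland UMIs were left and as lower bounds where none was.

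With the mouse as the replicate, only 4 sums remained, MG1, MG2, MT1 and MT2. In edgeR's quasi-likelihood fit with the mouse as a block, none of 14948 genes passed (0% called) and no member did, while 2218 genes and 43 of 46 members had an unadjusted p under 0.05. The lowest adjusted p of a member was 0.309 and the median member log2 fold change was 3.57. DESeq2 with the same block called 1383 genes and 40 members.

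Entry kinases and cyclins rose in all 8 cases in each mouse. Ccna2, which pairs with cyclin-dependent kinases from S phase until early mitosis, had no UMI in MG1. Its level was 41.0, 16.0, 23.7, 31.5 and 35.2 CPM in MT1, 1.59 and 2.93 CPM in MG2 and 73.2, 107 and 69.5 CPM in MT2. No tumor library came near a gland library, and MT2 lay wholly above MT1. Against the floor that 3 UMIs over both MG1 libraries would give (0.944 CPM), Ccna2 was at least 29.8-fold higher in MT1, and in mouse 2 it rose by 5.19 ± 0.41 on the log2 scale (± SE, adjusted p = 6.87e-09, edgeR). In MG1 replicate 2 alone, 3 UMIs would give 5.75 CPM. The bounds for members at 0 UMIs in MG1 thus rest mainly on MG1 replicate 1. Cdc25c, the phosphatase that activates cyclin-dependent kinase 1, had no UMI in either gland and was at least 8.12-fold higher in MT1 and 40.0-fold higher in MT2. Plk1, a kinase of spindle assembly and mitotic exit, was at 0 UMIs in MG1 and at least 14.1-fold higher in MT1. Ccnb1, the main mitotic cyclin, had 3 UMIs in MG1 and a pooled ratio of 43.8 in MT1 (exact 95% counting interval 14.9 to 213), and it rose by 5.31 ± 0.59 in mouse 2. Cdk1, the kinase itself, and the cyclin Ccnb2 rose by 4.74 ± 0.73 and 3.80 ± 0.48 in mouse 1 and by 4.87 ± 0.52 and 4.53 ± 0.30 in mouse 2. Aurka, a kinase of the spindle poles, rose less, by 1.44 ± 0.42 and 2.91 ± 0.33. Cdk1 stood at 2.66 on the log2 scale without MG1 replicate 1, at a ratio of 169.6 (interval 30.4 to 6705) without MG1 replicate 2 and at 5.87 on the log2 scale without MG2 replicate 2. Aurka was at 0.68 without MG1 replicate 1 and was not called. For Ccnb1 the ratio in mouse 1 was 10.8 (2.98 to 89.3) without MG1 replicate 1 and 109.9 (19.7 to 4348) without MG1 replicate 2. In mouse 2 Ccnb1 was at 4.58 on the log2 scale without MG2 replicate 1, at a ratio of 152 (27.3 to 6017) without MG2 replicate 2 and at 5.93 on the log2 scale without the gland cells in tumor clusters.

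Cks2, a small partner of cyclin-dependent kinases, was already measurable in every gland library. It stood at 17.6 and 30.5 CPM in MG1, 12.7 and 18.2 CPM in MG2, 140, 72.9, 85.7, 130 and 107 CPM in MT1 and 75.2, 85.5 and 78.8 CPM in MT2. Tumors lay above glands throughout, and 4 of the 5 MT1 libraries lay above every MT2 library. The change was 2.34 ± 0.31 in mouse 1 (adjusted p = 6.39e-06, edgeR) and 2.36 ± 0.27 in mouse 2 (adjusted p = 5.14e-07).

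The 5 checkpoint genes differed widely in their changes. Bub1, a checkpoint kinase at kinetochores, stood at 1.60 and 1.80 CPM in MG1 and 1.82 and 7.88 CPM in MG2, at 36.9, 17.2, 28.3, 31.5 and 41.0 CPM in MT1 and at 103, 148 and 92.5 CPM in MT2. No tumor library overlapped a gland library, and MT2 was the highest group. Bub1 rose by 4.22 ± 0.69 in mouse 1 and by 4.55 ± 0.41 in mouse 2. Bub1b, which with Mad2l1 and Bub3 forms the checkpoint's inhibitor of Cdc20, had 3 UMIs in MG1 and a pooled ratio of 19.6 (interval 6.66 to 95.5), and rose by 4.14 ± 0.34 in mouse 2. Ttk, the kinase that starts checkpoint signalling, was at 10.2 ± 3.51 CPM in MT1 and 18.6 ± 3.82 CPM in MT2, and rose by 2.36 ± 0.59 and 4.99 ± 0.50. The change of Bub1 in mouse 2 was 3.93 without MG2 replicate 1 and 6.02 without MG2 replicate 2, and that of Bub1b 4.87 without MG2 replicate 2 and 4.75 without the gland cells in tumor clusters. With MG1 replicate 1 left out, no UMI of Bub1b or Ttk remained in MG1, and they were at least 3.22-fold and 1.72-fold higher in MT1. For Ttk in mouse 2 the ratio without MG2 replicate 2 was 69.0 (interval 12.3 to 2729), and the log2 change without the gland cells in tumor clusters was 6.03.

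Bub3, which also serves cells outside mitosis, was at 21.6 and 16.2 CPM in MG1 and 24.8 and 27.9 CPM in MG2. In the tumors it was at 48.5, 43.1, 49.4, 56.2 and 54.8 CPM in MT1 and 42.8, 67.4 and 49.4 CPM in MT2. The tumors were above the glands but overlapped each other. Bub3 rose by 1.33 ± 0.24 in mouse 1 (adjusted p = 1.68e-04, edgeR) and 1.01 ± 0.20 in mouse 2 (adjusted p = 2.03e-04). Mad2l1, the checkpoint protein that captures Cdc20, was at 9.59 and 7.18 CPM in MG1 and 19.0, 7.25, 13.4, 15.4 and 16.7 CPM in MT1, so that MT1 replicate 2 lay inside the range of the gland. Its log2 difference in mouse 1 was 0.65 ± 0.40 and did not pass (adjusted p = 0.173). In mouse 2 Mad2l1 stood at 5.00 and 8.78 CPM in MG2 and 29.0, 44.1 and 31.0 CPM in MT2, without overlap, and it rose by 2.33 ± 0.31.

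All 7 kinetochore and centromere genes rose in both mice. Cenpe, a motor that links kinetochores to microtubules, was at 21.6 and 1.80 CPM in MG1, 11.4 and 29.3 CPM in MG2, 85.4, 51.9, 80.3, 78.4 and 91.5 CPM in MT1 and 344, 297 and 246 CPM in MT2. The MG1 libraries lay far apart, and no gland library reached a tumor library. Knl1, the scaffold that recruits Bub1 to the kinetochore, was at 2.00 and 3.59 CPM in MG1, 3.64 and 7.20 CPM in MG2, 22.5, 8.78, 15.2, 17.0 and 16.7 CPM in MT1 and 103, 89.8 and 69.2 CPM in MT2. Even the lowest MT2 library was well above the highest MT1 library. Cenpe rose by 2.23 ± 0.42 and 3.86 ± 0.37, and Knl1 by 2.77 ± 0.55 in mouse 1 and 4.0 ± 0.31 in mouse 2. Of the Ndc80 complex, which grips microtubule ends, Ndc80 rose by 3.21 ± 0.77 and 3.66 ± 0.51, Nuf2 by 4.0 ± 0.52 and 4.84 ± 0.37, and Spc25 by 2.76 ± 0.51 and 3.68 ± 0.33. Cenpa, the histone variant that marks centromeres, rose by 4.09 ± 0.46 and 4.16 ± 0.35, and Cenpf, a large kinetochore protein, by 2.79 ± 0.36 and 3.74 ± 0.28. Nuf2 in mouse 1 was at 2.26 without MG1 replicate 1 and at a ratio of 42.5 (interval 11.7 to 352) without MG1 replicate 2. Ndc80 was at 0.93 and not called without MG1 replicate 1, which held none of its MG1 UMIs, and at least 20.5-fold higher in MT1 without MG1 replicate 2. The ratio of Cenpe in mouse 1 without MG1 replicate 1 was 40.8 (7.30 to 1611). In mouse 2 the changes without MG2 replicate 2 were 4.76 for Cenpe, 4.64 for Knl1 and 4.64 for Spc25, and Cenpe was at 4.76 without the gland cells in tumor clusters.

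The chromosomal passenger complex corrects wrong attachments, and all 4 of its genes rose in both mice. Its kinase Aurkb had no UMI in MG1 and 2 in MG2. Aurkb was at least 8.77-fold higher in MT1, and its pooled ratio in mouse 2 was 52.0 with an exact 95% counting interval of 14.3 to 431. Incenp, the scaffold of the complex, was at 21.6 and 12.6 CPM in MG1, 20.2 and 24.3 CPM in MG2, 114, 86.3, 105, 125 and 110 CPM in MT1 and 132, 167 and 109 CPM in MT2. Tumor and gland libraries were well apart, and the tumors overlapped each other. Incenp rose by 2.49 ± 0.26 and 2.61 ± 0.22, Birc5 (survivin) by 4.57 ± 0.52 and 3.54 ± 0.37, and Cdca8 (borealin) by 4.47 ± 0.52 and 3.55 ± 0.34. Birc5 in mouse 1 was at 3.15 without MG1 replicate 1 and 5.44 without MG1 replicate 2, and in mouse 2 at 4.32 without MG2 replicate 2. Without MG1 replicate 1 Incenp was at 3.17, and Cdca8 had a ratio of 30.3 (interval 5.43 to 1198). Both UMIs of Aurkb in MG2 came from replicate 2, so that the ratio was 25.6 (7.05 to 212) without MG2 replicate 1 and the level at least 17.6-fold higher without MG2 replicate 2.

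Of the genes of the anaphase promoting complex, the ubiquitin-conjugating enzyme Ube2c rose by 5.19 ± 0.72 and 4.76 ± 0.52, and the activator Cdc20 by 4.59 ± 0.68 and 3.11 ± 0.41. Pttg1 (securin), which holds the sister-separating protease inactive, was at 20.0 and 26.9 CPM in MG1, 12.7 and 14.2 CPM in MG2, 62.9, 35.9, 40.6, 57.6 and 45.9 CPM in MT1 and 66.4, 104 and 75.4 CPM in MT2. Each tumor lay above its gland, by a narrow gap in mouse 1 and a wide gap in mouse 2. Pttg1 rose by 1.14 ± 0.29 in mouse 1 and 2.60 ± 0.26 in mouse 2. Ube2c was at 4.02 in mouse 1 without MG1 replicate 1, and in mouse 2 at 4.10 without MG2 replicate 1, 6.43 without MG2 replicate 2 and 5.63 without the gland cells in tumor clusters. Cdc20 was at least 5.42-fold higher in MT1 with MG1 replicate 1 left out, where no UMI remained in MG1, and in mouse 2 it was at 4.26 without MG2 replicate 2 and 3.70 without the gland cells in tumor clusters.

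All 8 spindle genes and all 5 genes of the midzone and cytokinesis rose in both mice. Tpx2, which activates Aurka on the spindle, rose by 3.64 ± 0.40 and 4.32 ± 0.32. Kif2c, a microtubule depolymerase, had 3 UMIs in MG1 and a pooled ratio of 7.35 (interval 2.46 to 36.1) in mouse 1, and rose by 2.78 ± 0.41 in mouse 2. The motors Kif11, Kif20b and Kif4 rose by 3.11 ± 0.36, 3.49 ± 0.32 and 3.45 ± 0.35 in mouse 2, and Aspm, Nusap1 and Hmmr, which organise spindle microtubules, by 3.96 ± 0.36, 3.67 ± 0.43 and 3.72 ± 0.36. In mouse 1 these 6 genes rose by 2.85 to 4.86. Anln, which links actin and septins in the cleavage furrow, rose by 3.85 ± 0.50 and 3.64 ± 0.37. Without the gland cells in tumor clusters the change in mouse 2 was 5.12 for Anln, 4.71 for Kif4, 5.00 for Aspm, 4.31 for Hmmr, 5.85 for Kif20a, 4.10 for Prc1 and 4.58 for Ect2. Kif20a, a motor of the midzone, had no UMI in MG1 and was at least 17.4-fold higher in MT1, and rose by 4.83 ± 0.49 in mouse 2. Prc1, which bundles midzone microtubules, Kif23 and Ect2, which position the contractile ring, rose by 2.93 ± 0.52, 2.96 ± 0.42 and 3.27 ± 0.48 in mouse 1 and by 3.44 ± 0.39, 2.83 ± 0.32 and 3.84 ± 0.34 in mouse 2. Single gland libraries moved many of these values. When MG1 replicate 1 was left out, Aspm was at 1.53 and not called, and Hmmr, Kif20b, Kif4 and Kif2c, with no UMI left in MG1, were at least 9.91-fold, 9.81-fold, 4.97-fold and 1.21-fold higher in MT1. Prc1 and Ect2 were then at 1.83 and 1.94, and Kif23 had a ratio of 11.7 (interval 3.23 to 96.9). When MG1 replicate 2 was left out, Aspm was at 3.59, Prc1 at 3.55 and Ect2 at 4.0. In mouse 2, leaving out MG2 replicate 2 put Nusap1 at 5.16, Tpx2 at 5.12, Hmmr at 4.91, Anln at 4.87, Aspm at 4.80 and Kif11 at 3.85, and gave Kif20a a ratio of 72.2 (19.9 to 596). Leaving out MG2 replicate 1 put Nusap1 at 3.05 and Kif20a at 4.18.

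Among the genes of chromosome structure, Smc4, the condensin ATPase, was at 141 and 144 CPM in MG1, 82.8 and 92.3 CPM in MG2, 508, 346, 353, 533 and 435 CPM in MT1 and 781, 848 and 707 CPM in MT2. MG1 was the higher gland and MT1 the lower tumor. Smc4 rose by 1.61 ± 0.20 in mouse 1 (adjusted p = 2.74e-06, edgeR) and 3.15 ± 0.21 in mouse 2 (adjusted p = 4.22e-10). Ncapg, a condensin I subunit, had no UMI in MG1 and 2.27 and 1.35 CPM in MG2, and stood at 46.7, 20.2, 33.8, 34.2 and 43.9 CPM in MT1 and 49.9, 55.0 and 41.1 CPM in MT2. Its level in MT1 was at least 37.0-fold above the MG1 floor, and it rose by 4.73 ± 0.38 in mouse 2. Its partner in the same complex, Ncapd2, gave another picture, with 3.20 and 5.39 CPM in MG1, 1.36 and 4.73 CPM in MG2, 7.50, 5.72, 7.23, 7.12 and 11.0 CPM in MT1 and 16.2, 14.6 and 14.5 CPM in MT2. MT1 lay only just above MG1. The Ncapd2 difference in mouse 1 was 1.08 ± 0.49 and did not pass (adjusted p = 0.0683, edgeR), though it was called without the gland cells in tumor clusters, at 1.27 (adjusted p = 0.0379), and in mouse 2 it rose by 2.30 ± 0.35. Smc2, the partner ATPase, rose by 2.68 ± 0.32 and 2.46 ± 0.28, Mki67, which coats mitotic chromosomes, by 2.49 ± 0.32 and 3.88 ± 0.29, and Top2a, which untangles sister DNA, by 3.21 ± 0.43 and 3.85 ± 0.38. Mki67 was at 1.89 in mouse 1 without MG1 replicate 1. In mouse 2 Ncapd2 was at 3.51 and Top2a at 4.67 without MG2 replicate 2, and Top2a was at 4.49 without the gland cells in tumor clusters.

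**Figure D2:**
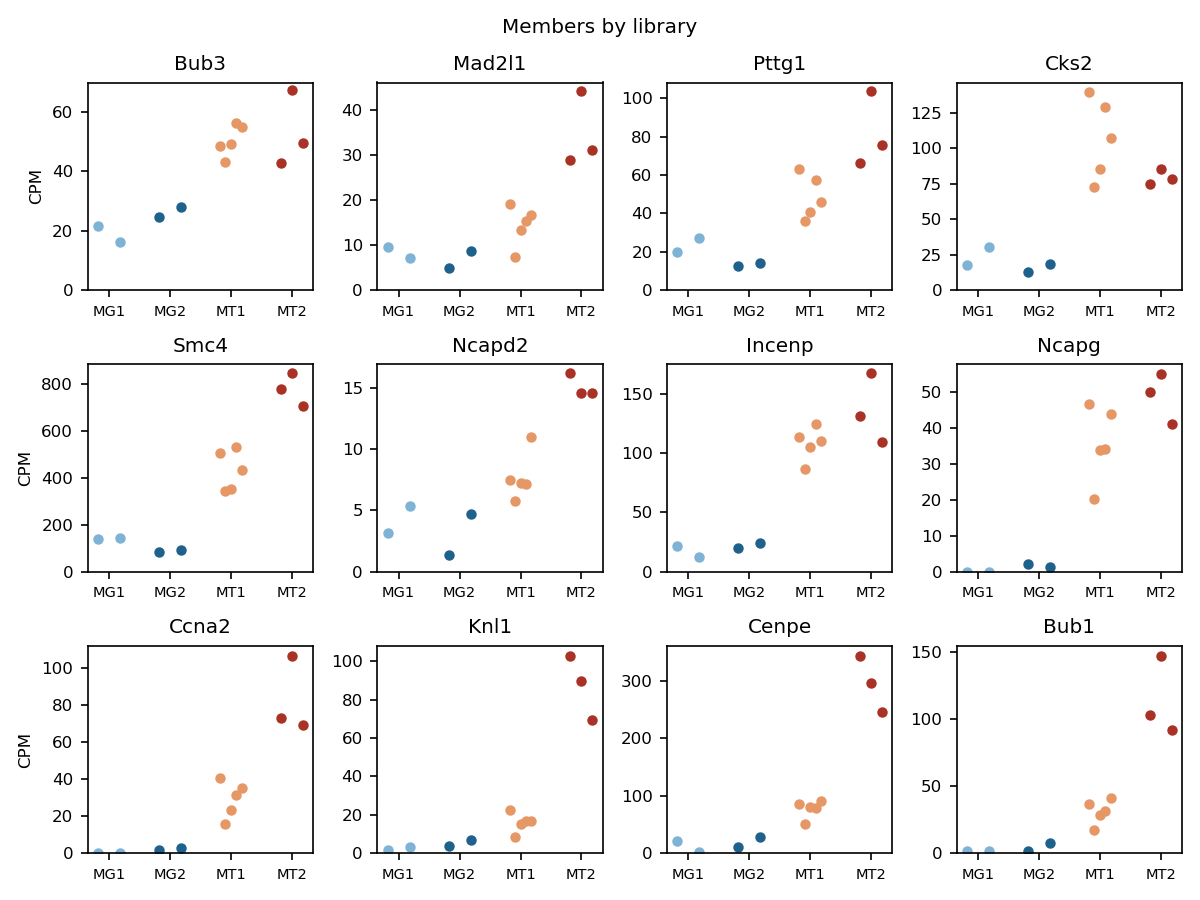
Level in CPM (y axis, linear and from 0) of 12 members in each library, 1 panel a gene and 1 point a library, for MG1, MG2, MT1 and MT2. The panels show 9 genes that lay apart from the members' median in both mice and then Knl1, Cenpe and Bub1, which differed most between the tumors; of these 12, only Mad2l1 has a tumor library, MT1 replicate 2 at 7.25 CPM, within the range of its gland.

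**Figure D3:**
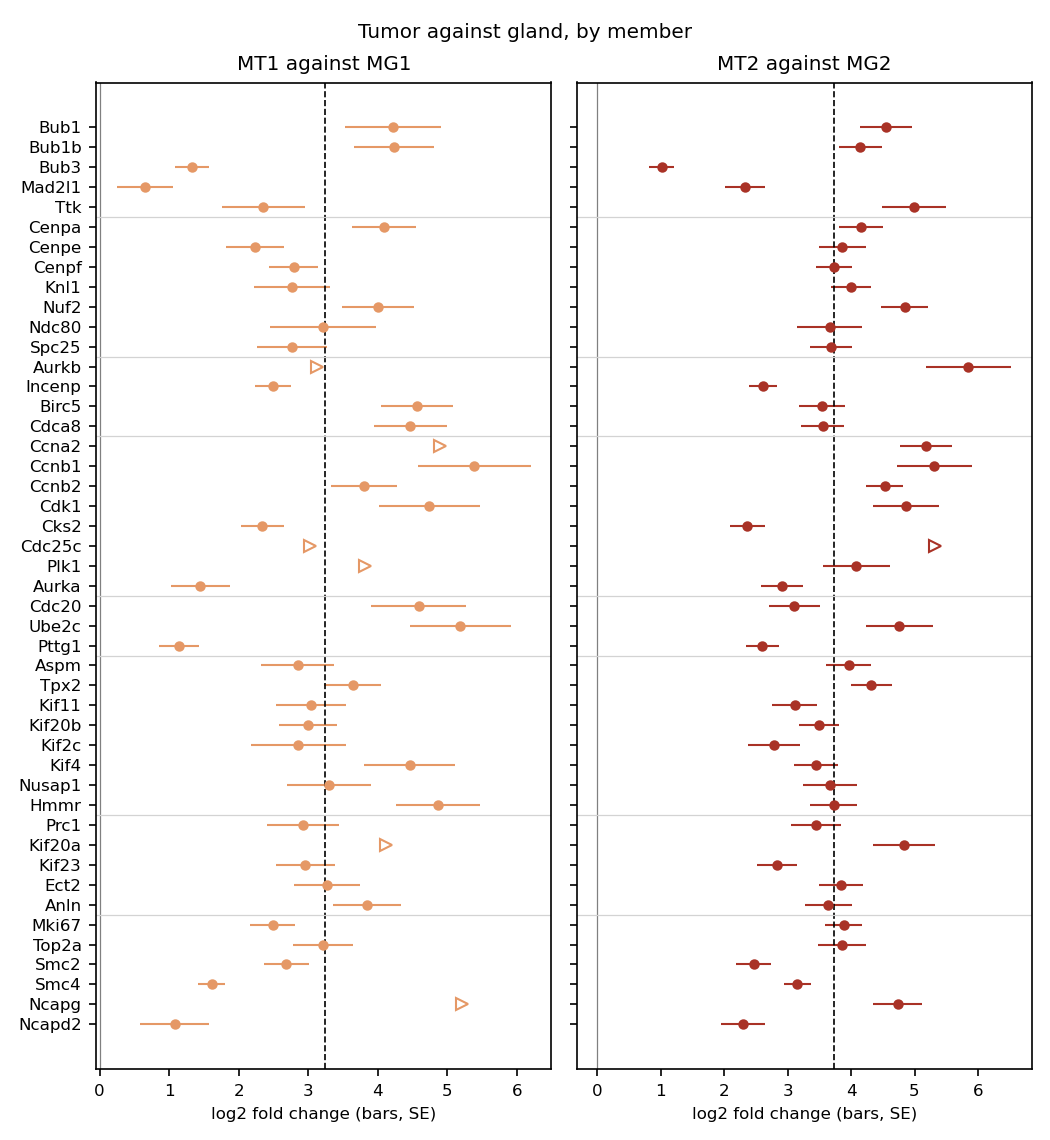
Log2 fold change of each of the 46 members (x axis, points with SE bars) in MT1 against MG1 and in MT2 against MG2, with grey lines between the roles. Open triangles are lower bounds of members at 0 UMIs in the gland, and the dashed lines mark the members' median (3.24 in mouse 1 and 3.73 in mouse 2).

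To ask which members rose more or less than the list as a whole, each fold change was tested against the members' median in the same fit. In mouse 1, 15 of 46 members lay apart from the median, 5 above (0.85% of all genes) and 10 below (88.5% of all genes). In mouse 2, 16 lay apart, 7 above (2.32% of all genes) and 9 below (92.6% of all genes). Since most genes of the table did not share the rise, a call below the median was usual for any gene.

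In mouse 1 the 5 members above the median were Ncapg, Ccna2, Kif20a, Ube2c and Birc5. The first 3 were at 0 UMIs in MG1, and their lower bounds exceeded the median by 1.97, 1.66 and 0.88 on the log2 scale. Ube2c exceeded it by 1.95 ± 0.72 and Birc5 by 1.32 ± 0.52 (adjusted p = 0.0401 and 0.0466, edgeR). The members farthest below were Mad2l1 at -2.59 ± 0.40, Ncapd2 at -2.16 ± 0.49, Pttg1 at -2.10 ± 0.29, Bub3 at -1.91 ± 0.24 and Aurka at -1.80 ± 0.42. Smc4, Cenpe, Cks2, Mki67 and Incenp were also below. Of the 15 calls, 6 held under every alternative run, those of Aurka, Bub3, Cks2, Ncapd2, Pttg1 and Smc4, and without MG1 replicate 1 only 8 members lay apart. In that setting Ube2c at 0.41 and Birc5 at -0.45 were not called, and Ncapd2, Aurka and Pttg1 were at -3.02, -2.93 and -2.70.

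In mouse 2, Cdc25c, at 0 UMIs in MG2, had a lower bound 1.59 above the median. Aurkb exceeded the median by 2.12 ± 0.68, Ccnb1 by 1.58 ± 0.59, Ccna2 by 1.46 ± 0.41 and Nuf2 by 1.11 ± 0.37, followed by Ncapg and Ccnb2. Farthest below were Bub3 at -2.72 ± 0.20, Ncapd2 at -1.43 ± 0.35, Mad2l1 at -1.40 ± 0.31, Cks2 at -1.37 ± 0.27 and Smc2 at -1.27 ± 0.28, before Pttg1, Incenp, Kif23 and Smc4. The calls of Bub3, Cdc25c, Cks2, Incenp, Mad2l1, Pttg1 and Smc2 held under every alternative run, 7 of 16. Without the gland cells in tumor clusters the calls of Ccnb1, Aurkb, Ncapg, Nuf2 and Ccnb2 were lost, at 1.68, 1.40, 0.94, 0.77 and 0.56 above the median, while those of Ccna2, at 1.24, and Cdc25c remained. The count of members apart was again 16 in that setting, so other members were called in place of those lost. Without MG2 replicate 2 Bub3 was at -3.38, and Aurkb and Ccnb1, with 0 and 1 UMIs left in MG2, were not called.

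In both mice Ncapg and Ccna2 lay above the median, as did 0.154% of all genes, and Bub3, Mad2l1, Pttg1, Cks2, Smc4, Ncapd2 and Incenp lay below it, as did 86.2% of all genes. Of these 9 members, Bub3, Cks2 and Pttg1 held in each mouse under every alternative run. The calls of Ncapg and Ccna2 were lost in mouse 1 without MG1 replicate 1 and in mouse 2 without MG2 replicate 2. That of Ncapg in mouse 2, unlike that of Ccna2, was also lost without the gland cells in tumor clusters. The 7 lower genes had 11 (Ncapd2) to 434 (Smc4) UMIs in MG1 and 27 to 774 in MG2, where the median member had 11 and 52. The 2 upper genes had 0 UMIs in MG1 and 16 (Ncapg) and 20 (Ccna2) in MG2. How far gland cells outside mitosis express each member was not tested.

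The rise was then compared between the mice by the interaction in the same edgeR fit. For 5 of 46 members (10.9%) it was smaller in mouse 1, a lower share than the 20.1% of all genes called lower. For none was it larger, where 23.6% of all genes were called higher. The difference was -1.54 ± 0.27 for Smc4 (adjusted p = 1.48e-04, edgeR), -1.46 ± 0.39 for Pttg1 (0.00579), -1.39 ± 0.43 for Mki67 (0.0136), -1.67 ± 0.54 for Mad2l1 (0.0179) and -1.63 ± 0.55 for Cenpe (0.0238). The median over the members was -0.23. Ttk differed by -2.63 ± 1.07, which did not pass (adjusted p = 0.0539). The calls of Smc4 and Pttg1 held under every alternative run. Without MG1 replicate 1 the Cenpe difference was 1.76, with the MG1 libraries at 21.6 and 1.80 CPM. Without the gland cells that fell in tumor clusters, the rise of 11 members (23.9%) was smaller in mouse 1, where 17.4% of all genes were called lower, with Anln, Aspm, Cenpf, Top2a, Tpx2 and Ttk added, and the members' median was -0.80. Anln, at 0.20 ± 0.65 with those cells, stood at -1.36 without them. Leaving out MG2 replicate 1 gave 2 members (15.8% of all genes), without Cenpe, Mad2l1 and Mki67, and leaving out MG2 replicate 2 gave 8 (17.1% of all genes), with Ncapd2, Top2a and Ttk added.

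Compared directly, the tumors differed in most members. MT1 lay below MT2 in 32 of 46 members by edgeR's test, where 36.2% of all genes were lower, and in none was it above, where 32.6% were higher. The median member log2 difference, MT1 over MT2, was -0.81, beside -0.06 over all genes. Every MT2 library lay above every MT1 library for 26 of 46 members, as it did for 34.4% of all genes. The largest differences were those of Knl1 at -2.46 ± 0.20 (adjusted p = 3.61e-09, edgeR), Cenpe at -1.93 ± 0.24 and Bub1 at -1.89 ± 0.24. At the other end were Cks2 at 0.42 ± 0.19 (adjusted p = 0.0541), Cdc20 at 0.11 ± 0.23 and Ccnb1 at 0.05 ± 0.26, none of which passed. The calls of Aurka, Aurkb, Kif2c, Ncapg and Ndc80 were lost without MT2 replicate 1, which left 27 members called, and also without MT2 replicate 2, MT1 replicate 3 or MT1 replicate 4, and 1 to 3 of them without MG1 replicate 2, MT1 replicate 1, MT1 replicate 2 or MT2 replicate 3. DESeq2 lost the same calls, at 27 members, and the other processing settings called 29 to 32. Because the tumors came from different mice, tumor and mouse cannot be told apart here.

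Against the median between the tumors, 21 members lay apart, 9 nearer to or above MT2's level (59.6% of all genes) and 12 farther below it (14.6% of all genes). The 5 with the largest positive deviation were Cks2 at 1.23 ± 0.19, Cdc20 at 0.92 ± 0.23, Ccnb1 at 0.86 ± 0.26, Bub3 at 0.74 ± 0.15 and Birc5 at 0.73 ± 0.23. Smc2, Kif23, Cenpa and Incenp completed them. The 5 with the largest negative deviation were Knl1 at -1.65 ± 0.20, Cenpe at -1.11 ± 0.24, Bub1 at -1.07 ± 0.24, Spc25 at -0.91 ± 0.21 and Aspm at -0.90 ± 0.22. Cenpf, Top2a, Mki67, Ccna2, Ccnb2, Anln and Tpx2 completed these. All but Anln, Cenpa, Top2a and Tpx2 held under every alternative run, 17 of 21.

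The members' own UMIs were also divided by role. Kinetochore and centromere genes took 11.0% to 11.9% of member UMIs in the MT1 libraries and 15.1% to 17.0% in the MT2 libraries. The chromosomal passenger complex took 10.1% ± 0.505 (SD, n = 5) in MT1 and 6.13% ± 0.650 (n = 3) in MT2, and entry kinases and cyclins 10.5% ± 0.725 and 7.38% ± 0.731. Checkpoint genes took 4.46% and 4.58%. In the glands they took 6.96% in MG1 and 8.45% in MG2, and the genes of chromosome structure took 49.2% and 40.1%, against 34.7% in MT1 and 36.5% in MT2. By library, checkpoint genes took 8.79% and 5.13% in MG1, the latter of only 273 member UMIs, and 9.03% and 7.86% in MG2. Tumor libraries ran from 4.03% to 4.98%.

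To set aside how many cells carried the transcripts, the members were also compared among cells with 4 or more UMIs of the other members in 1000, which were 1451 to 1622 cells of MT1 and 3618 to 3992 of MT2 depending on the member left out. Detection overlapped between the tumors' libraries for 28 of 46 members. Every MT2 library lay above every MT1 library for 12 (17.8% of all genes) and below for 6 (15.5%), and 3 of each were picked after their values were seen. Knl1 was detected in 3.37% to 5.25% of such cells in the MT1 libraries and 11.7% to 16.7% in the MT2 libraries, Cenpe in 18.7% to 24.7% and 33.5% to 40.6%, and Top2a in 24.1% to 49.6% and 56.7% to 62.7%. MT2 was higher for these 3, without overlap. Birc5 was detected in 26.5% to 31.6% of cells in MT1 and 13.2% to 18.7% in MT2, Cks2 in 18.1% to 27.9% and 11.9% to 12.7%, and Ccnb1 in 9.09% to 16.6% and 5.70% to 8.55%. For these MT1 was higher, again without overlap, although the summed levels of Birc5 and Ccnb1 were not called different between the tumors. The glands had at most 5 such cells in MG1 and 34 in MG2, and only MG2 replicate 2 reached the minimum of 20 cells, for 43 members and with 8 of its 18 to 21 cells in tumor clusters. In that library the share was 19.0% for Knl1 (exact 95% interval 5.45% to 41.9%), 28.6% for Cenpe (11.3% to 52.2%) and 60.0% for Top2a (36.1% to 80.9%), each above all MT1 libraries. It was 23.8% for Birc5 (8.22% to 47.2%), 9.52% for Cks2 (1.17% to 30.4%) and 0 of 21 cells for Ccnb1 (up to 16.1%), each below them. With 1 library no spread is known, and these intervals are wide.

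The members farthest below the median between the tumors were often long genes, a feature looked at after their values were seen. Of the 12, 6 had a longest coding transcript (GENCODE M21) over 5000 bases, namely Cenpf, Mki67, Aspm, Cenpe, Knl1 and Top2a, and the median length was 4913 bases. Of the 9 on the other side 1 was that long, and the median was 3236 bases. The 9 members over 5000 bases had a median log2 difference, MT1 over MT2, of -1.58, and the 37 others -0.73. Across the 46 members Spearman's rho of length and difference was -0.47, across 63 other mitotic genes -0.21, and across 11847 genes with a length -0.09. These points share their libraries and are no independent replicates, and the part of length in the difference was not tested. Median UMIs per cell were 1795 to 2893 in the MT1 libraries and 2325 to 4798 in the MT2 libraries.

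**Figure D4:**
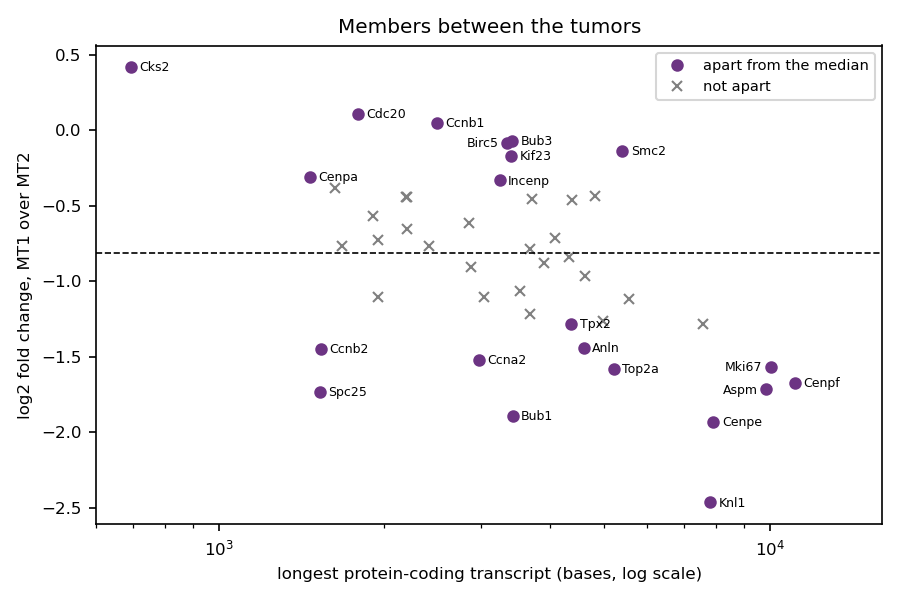
Log2 difference of each member, MT1 over MT2 (y axis), against the length of its longest coding transcript in bases (x axis, log scale). Filled points lay apart from the members' median (dashed line) and crosses did not. The members over 5000 bases have a median of -1.58 (range -2.46 to -0.14), against -0.73 (range -1.89 to 0.42) for the others, so the ranges overlap.

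Checkpoint genes were then set against spindle genes in cells matched for how much of the programme they carried. Cells thinned to 1000 UMIs were binned by their UMIs of the 33 members in neither role, and the checkpoint share was the UMIs of the 5 checkpoint genes out of those plus the 8 spindle genes. In MT1 it was 39.8% ± 4.64 in cells with 1 such UMI (SD over 5 libraries), 28.5% ± 4.64 at 2 to 3, 23.6% ± 1.80 at 4 to 7 and 16.5% ± 6.71 at 8 or more. In MT2 it was 34.8% ± 5.93, 29.1% ± 6.22, 24.9% ± 1.53 and 19.4% ± 2.99 over 3 libraries. The share was lower in cells with more mitotic UMIs in each tumor. Averaged over the bins, libraries ran from 23.7% to 29.95% in MT1 and from 23.1% to 29.3% in MT2, so the tumors overlapped, with MT1 0.04 percentage points above MT2 on average. That difference was 2.36 points without thinning and -2.82 points with Bub3 left out. MT1 replicate 2 was the lowest at 8 or more UMIs, at 4.76%.

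Single checkpoint genes were also set against the spindle genes along the bins. Bub3 made up 29.0% of Bub3 and spindle UMIs in the lowest bin of MT1 and 5.34% in the highest, and 21.2% and 3.94% in MT2. Bub1 set against them in the same way took 7.40%, 9.91%, 11.2% and 5.95% along the bins of MT1 and 10.5%, 14.7%, 14.6% and 10.9% along those of MT2. Mad2l1 stood at 6.63% in the lowest and 2.13% in the highest bin of MT1 and at 5.19% and 2.81% in those of MT2, Bub1b at 6.14% and 3.50% and at 7.93% and 2.98%, and Ttk at 2.98% and 2.27% and at 0.898% and 1.75%. Bub3, Mad2l1 and Bub1b were thus lower in the highest bin than in the lowest in each tumor, on average over libraries. The lowest bin held few UMIs of Mad2l1 (11 in MT1 and 16 in MT2), Bub1b (9 and 25) and Ttk (5 and 3), against 58 and 86 of Bub3. The MT1 libraries of Bub1b overlapped, at 3.33% to 11.5% in the lowest bin and 0% to 6.13% in the highest. Those of Bub3 and Mad2l1, and of Bub1b in MT2, did not overlap between these bins. With Bub3 left out, the checkpoint share was 19.9%, 20.5%, 18.6% and 12.4% along the bins of MT1 and 21.1%, 23.8%, 21.3% and 16.6% along those of MT2. The gap between the lowest and highest bins was thus smaller without Bub3 in both tumors. In the glands these UMIs were few, with 13 checkpoint and spindle UMIs in the lowest bin of MG2 and 5 in that of MG1. At 8 or more there were 11 checkpoint and 37 spindle UMIs in MG2, and the checkpoint share was 13.3% and 27.3% in its libraries (exact 95% intervals 1.66% to 40.5% and 13.3% to 45.5%). Without thinning, the MG2 libraries were at 64.4% and 73.5% in the lowest bin and at 15.4% and 18.1% at 8 or more.

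**Figure D5:**
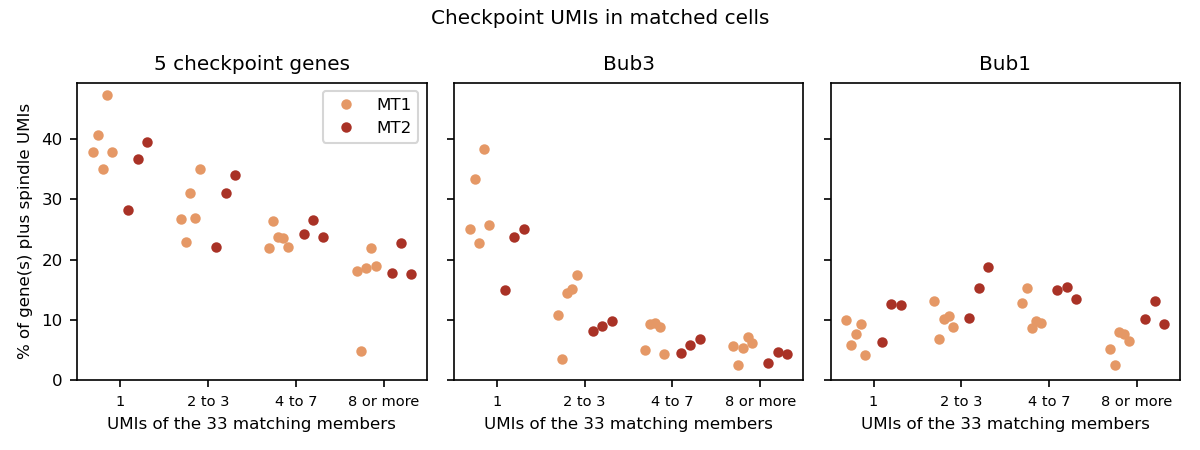
UMIs of the 5 checkpoint genes, of Bub3 and of Bub1, each as a percent of those plus the spindle UMIs (y axis), by the cell's UMIs of the 33 matching members (x axis, 4 bins). Points are libraries of MT1 and MT2, which overlap in every bin for the 5 genes, and Bub3 drops from 29.0% to 5.34% on average in MT1.

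Other genes of the pathway were counted in the same fit, where 32.5% of all genes rose and 27.1% fell in MT1 against MG1, and 36.4% and 30.6% in MT2 against MG2. Of 63 other mitotic genes, 52 rose and none fell in MT1, with a median log2 fold change of 3.04, and 56 rose and 1 fell in MT2, with a median of 2.83. The one that fell was Wee1, the kinase that restrains cyclin-dependent kinase 1, at -0.95 ± 0.23 in mouse 2 and -0.31 ± 0.23, not called, in mouse 1. At the other end were Shcbp1 and Ncaph, at 0 UMIs in MG1 and at least 22.7-fold and 20.1-fold higher in MT1, and Cdkn3 and Ska1, which rose by 5.95 ± 0.55 and 4.57 ± 0.37 in mouse 2. Of 23 replication genes, 21 rose and none fell in each mouse, with medians of 2.49 and 2.45. The histone mRNA factor Slbp was among the exceptions in each, at -0.31 ± 0.21 and -0.21 ± 0.19, with the sliding clamp Pcna at 0.14 ± 0.21 in mouse 1 and the flap nuclease Fen1 at -0.02 ± 0.17 in mouse 2. Rrm2 of ribonucleotide reductase and the helicase factor Cdc45 led in mouse 2 with 4.26 ± 0.37 and 3.47 ± 0.43, and Cdc45, at 0 UMIs in MG1, was at least 18.4-fold higher in MT1, where Uhrf1 rose by 4.28 ± 0.55. Between the tumors, 37 other mitotic genes were lower and 6 higher in MT1, and 11 replication genes were lower and 2 higher, beside 36.2% and 32.6% of all genes. Of 15 regulators of the programme, 7 rose and 1 fell in MT1, and 8 rose and 2 fell in MT2. Foxm1, a late cell cycle activator, rose by 1.52 ± 0.54 and 3.42 ± 0.37, and Mybl2 (B-MYB), with 3 UMIs in MG1, had a pooled ratio of 4.96 (interval 1.64 to 24.5) in mouse 1 and rose by 2.40 ± 0.42 in mouse 2. Nfyb, a subunit of NF-Y, fell in both mice, with log2 fold changes of -0.81 ± 0.17 and -0.65 ± 0.15, and Lin37, of the MuvB core that binds the CHR, fell in mouse 2, at -1.45 ± 0.36. Foxm1 was lower in MT1 than in MT2, at -1.38 ± 0.21 on the log2 scale (adjusted p = 1.39e-05, edgeR).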

How the data were processed

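Drop-seq UMI counts were deposited by the authors as 1 table of genes by cells, with STAR and GRCm38.p6 named in the submitters' processing notes and with no normalization; strand use in counting was not given in the sources used here, and 13 members have exons that overlap another gene. The smallest cell had 800 genes and 1111 UMIs. Libraries shared 0 to 7 barcodes. A doublet caller marked 44 cells (0.208%), too few to rely on, and no cell was removed. Cells were clustered (scanpy 1.11.5, leidenalg 0.10.2) without the cell cycle genes, and stromal clusters (1138 cells) were left out. Counts were summed per library and fitted in 4 groups with edgeR 4.0.16 (R 4.3.3), with TMM, filterByExpr and Benjamini-Hochberg adjustment over all genes tested. A second fit summed counts per mouse and tissue, with the mouse as block, since the labels pair gland and tumor by mouse. Deviation from the members' median was tested by an offset. The test was checked on simulated counts. Named genes were those at the ends of each contrast and, by mean tumor CPM, of each role, those apart from the median, and those at 0 UMIs in a gland. DESeq2 1.42.0, other size factors, filters, cell sets, depths and left-out libraries were the alternatives. The members, lists and tests were chosen with earlier results of these data known.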

Additional observations from a re-analysis of the deposited data

Results flagged for a closer look

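Among the 5 libraries of MT1, replicate 2 stood far below the others in Kif20b and Prc1. Kif20b, a spindle motor, was at 32.4 CPM there and at 57.8 to 65.5 CPM in the other 4. Prc1, the midzone bundler, was at 29.0 CPM and at 68.9 to 83.9 CPM. These were 2 of 57 groups tested for a sample apart from the rest, and chance alone gives about 1 in 20. Replicate 2 was the lowest MT1 library for 45 of the 46 members and had the lowest summed level of them, 1792 CPM against 2604 to 3402 CPM.

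The rise from gland to tumor was smaller in mouse 1 than in mouse 2 for 5 of 46 members by the interaction in edgeR's quasi-likelihood fit. That was 10.9% of the members, a lower share than over all genes. The log2 differences were -1.39 for Mki67, -1.63 for Cenpe, -1.67 for Mad2l1, -1.54 for Smc4 and -1.46 for Pttg1, where 20.1% of all genes were called lower. Without MG1 replicate 1 the Cenpe difference was 1.76. With 1 animal behind each pair, a difference between the mice and one between these tissues cannot be told apart.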

How the results depend on the processing

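Leaving out each library in turn gave 38 to 45 members called in MT1 against MG1, 46 to 46 in MT2 against MG2, 2 to 8 for the difference between the mice and 27 to 33 for MT1 against MT2. Members apart from the median numbered 8 to 21, 11 to 20 and 18 to 24 for MT1 against MG1, MT2 against MG2 and MT1 against MT2. The summed level gave ratios of 5.76 to 6.83, 9.04 to 15.1 and, for MT2 over MT1, 1.79 to 2.12. The share of cells with 2 or more member UMIs differed by 25.5 to 31.1 points in mouse 1, 46.8 to 54.5 in mouse 2 and 14.9 to 22.6 between the tumors, and the checkpoint share by -1.94 to 1.16.

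Without MG1 replicate 1 the deviation from the median in mouse 1 turned to -0.45 for Birc5 (up to 1.82 without another library) and 1.88 for Cenpe (down to -1.80), and the Cenpe difference between the mice to 1.76 (down to -2.49). Without MG1 replicate 2 0 UMIs of Ndc80 were left in MG1, so its fitted deviation of 6.57 rests on the prior count and its lower bound is 0.74 (down to -2.67 without another library), and without MG2 replicate 2 that of Ncapg in mouse 2 was -0.073 (up to 1.80). Without gland cells in tumor clusters 11 members (23.9%) differed between the mice, beside 17.4% of all genes, Anln among them at -1.36, and Anln deviated by 0.88 in mouse 2. The cause was not tested.

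With the mouse as block, edgeR's quasi-likelihood test called no member with or without the block, and DESeq2 with the block called 40. The share difference in mouse 1 was 28.3 points and 19.3 without thinning. In mouse 2 it was 51.6 points, and 38.4 thinned to 500 UMIs, 61.7 without thinning and 42.8 at 3 or more UMIs. Counts kept in every setting were 38 of 44, 46 of 46 and 27 of 32 calls in mouse 1, mouse 2 and between the tumors. With a median of 11 UMIs a member in MG1, depth limits the fold changes of members with few UMIs there.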
